A study of Mus musculus with 20 samples.

Results

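The miR-183, miR-96 and miR-182 cluster is a group of 3 neighbouring microRNA (miRNA) hairpins on mouse chromosome 6, each of which can give a mature miRNA from its 5p arm and from its 3p arm. Its members were taken as every entry of the count files named for miR-182, miR-183 or miR-96, which gave 6 mature arms of the 1886 listed. Reads were found for 5 of these arms. The arms mmu-miR-182-5p, mmu-miR-183-5p, mmu-miR-96-5p and mmu-miR-183-3p, written below without the mouse prefix, passed the filter on low counts, so 4 of the 6 members were tested; miR-182-3p was too rare, and miR-96-3p had no read in any library.

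The libraries are of small RNA from cultured primary midbrain neurons, prepared from the ventral mesencephalon of C57Bl6/J mouse embryos of day 12.5. The 4 groups had 5 libraries each: neurons kept for 5 days in vitro (DIV5) with 10 ng/ml of glial cell line-derived neurotrophic factor (GDNF), neurons kept to DIV5 without it (control), neurons kept for 1 day (DIV1) with 10 ng/ml GDNF, and DIV1 neurons without it (control). All of them grew without serum in Neurobasal-A with B27 supplement, glutamine and ascorbic acid, on plates coated with poly-L-ornithine and laminin. The series asks what GDNF changes at each day, and calls miR-182 and miR-183 mimics of GDNF in its title. Whether the libraries of a group came from separate embryos or cultures is not given in the sources used here, so p-values measure the spread between libraries, which may be technical in part.

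A miRNA is cut from its hairpin and guides a silencing complex to messenger RNAs that pair with its seed, a short stretch near its 5′ end. The 3 miRNAs of this cluster are transcribed together as one long precursor and have closely similar seeds. They are best known from sensory cells, such as the photoreceptors of the retina and the hair cells of the inner ear, and changes in the seed of miR-96 cause hearing loss in mouse and human. GDNF is a survival factor for dopaminergic neurons of the midbrain and signals through the RET receptor.

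The mature sequences are shown first, because the comparison of their seeds and arms underlies the results below. They were taken from RefSeq (build GRCm38.p6), where all 6 arms were found by name, and are written 5′ to 3′ with the seed, bases 2 to 8, in capitals.
miR-182-5p: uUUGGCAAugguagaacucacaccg
miR-96-5p: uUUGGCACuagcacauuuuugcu
miR-183-5p: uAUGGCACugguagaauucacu
miR-183-3p: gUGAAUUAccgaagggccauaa
miR-182-3p: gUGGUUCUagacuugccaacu
miR-96-3p: cAAUCAUGuguagugccaauau

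The seeds of miR-182-5p and miR-96-5p were identical from base 2 to base 7 and matched at 6 of 7 seed bases. The seeds of miR-183-5p and miR-96-5p also matched at 6 of 7 bases, and those of miR-182-5p and miR-183-5p at 5 of 7. Over the whole molecule the order was different. Aligned from the 5′ end without gaps, miR-182-5p and miR-183-5p shared 18 of 22 bases, against 13 of 22 for miR-96-5p with miR-183-5p and 12 of 23 for miR-96-5p with miR-182-5p. Each of the 6 mature sequences was found in 1 RefSeq hairpin only, so no second mouse locus in that table could yield the same molecule. Of the 1738 mature miRNAs in the table, 1 outside the cluster, miR-1271-5p, shared bases 2 to 7 with a 5p arm of the cluster. It carries the same seed from base 2 to base 8 as miR-96-5p and was not analysed here.

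The hairpins lie on the minus strand, and transcription meets Mir183 first, then Mir96 and Mir182. They are shown because the use of their arms is compared below, with the 5p and 3p arms in capitals.
Mir183: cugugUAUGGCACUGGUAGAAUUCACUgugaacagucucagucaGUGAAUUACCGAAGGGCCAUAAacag
Mir96: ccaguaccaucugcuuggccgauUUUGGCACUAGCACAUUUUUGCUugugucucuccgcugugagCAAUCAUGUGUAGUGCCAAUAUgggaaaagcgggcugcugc
Mir182: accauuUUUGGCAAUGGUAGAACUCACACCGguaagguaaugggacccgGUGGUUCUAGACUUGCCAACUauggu

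Mir183 occupies chr6:30169668-30169737, Mir96 chr6:30169446-30169551 and Mir182 chr6:30165918-30165992 (GRCm38.p6). Mir183 and Mir96 are 116 bp apart, and Mir182 lies a further 3453 bp away, so that the 3 hairpins span 3820 bp.

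The libraries held between 420118 and 4324505 miRNA counts, and 1 read was worth between 0.231 and 2.38 CPM, the unit that scales each library to the same total. DIV5 libraries were deeper than DIV1 libraries, with totals of 1061619 to 4324505 against 420118 to 1761023. Within DIV5, the share of reads without a miRNA feature and the total count split the libraries by replicate number. It was 18.7 to 19.5% with GDNF and 17.7 to 19.0% in controls for replicates 1 and 2, against 9.51 to 11.7% and 11.4 to 13.3% for replicates 3 to 5. The labels name no batch, so this split was made after seeing the data, and results at DIV5 are also given within each side of it. The DIV5 control libraries 1 and 5 stood apart from the other DIV5 controls. In both, 43 of the 542 tested miRNAs (7.93%) were at least 2-fold above the mean of control libraries 2, 3 and 4, and the results that turn on them are also given without them. The miRNAs outside the cluster most like miR-182-5p are given over all 20 libraries.

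The cluster was carried mainly by miR-182-5p. Over the 20 libraries it held 51922 of the 60175 reads of the cluster (86.3%), miR-183-5p held 7835 (13.0%), miR-96-5p 231 (0.384%) and miR-183-3p 143 (0.238%). By mean CPM over all libraries, miR-182-5p was the 64th of the 1886 listed arms, miR-183-5p the 157th and miR-96-5p the 446th. These ranks moved with the group. For miR-182-5p the rank was 77 at DIV5 with GDNF, 134 in DIV5 controls, 44 at DIV1 with GDNF and 52 in DIV1 controls. All levels below are CPM scaled with TMM, a method that corrects for differences in composition between libraries. In RNA from whole cultures, fewer cells of a type and less of a miRNA per cell cannot be told apart.

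**Figure D1:**
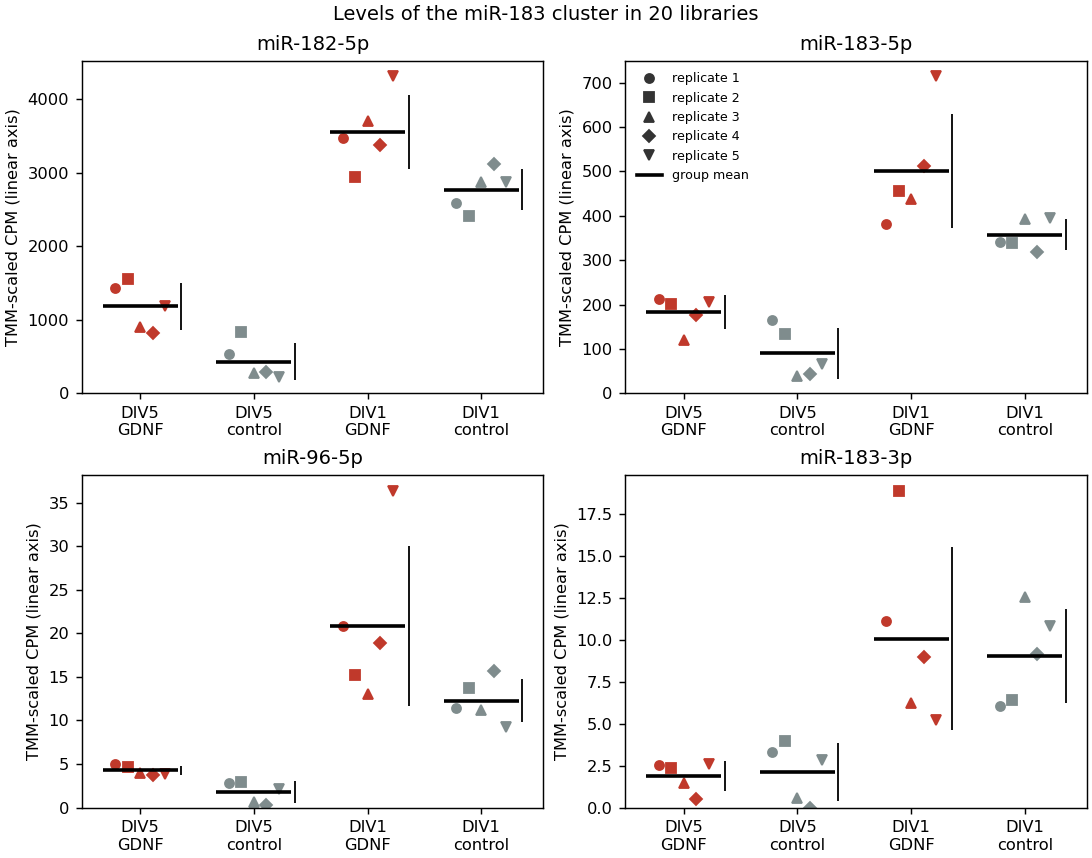
Level of each tested cluster arm in TMM-scaled CPM (vertical axis, linear, from 0) for the 4 groups. Each point is 1 library, its shape gives the replicate number, the horizontal line is the mean of 5 libraries and the vertical line beside it 1 SD on each side. All 10 DIV5 libraries lie below all 10 DIV1 libraries for each arm shown, and at DIV5 the means of miR-182-5p are 1181 with GDNF and 431 in controls. How many other miRNAs separate the days in this way was not counted.

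All 4 tested arms were lower at DIV5 than at DIV1, with and without GDNF. miR-182-5p, the most abundant arm, stood at 538, 832, 273, 291 and 222.5 CPM in DIV5 control libraries 1 to 5, against 2586, 2406, 2865, 3114 and 2873 CPM in DIV1 control libraries 1 to 5. The DIV5 values were widely spread, with library 2 highest and library 5 lowest, and all lay far below the lowest DIV1 value. miR-182-5p fell to a mean of 431 ± 255 CPM in DIV5 controls, against 2769 ± 276 CPM in DIV1 controls (SD, n = 5 each), a log2 fold change of -2.69 (SE 0.289) with an adjusted p of 2.35e-07 by edgeR's quasi-likelihood test with Benjamini-Hochberg adjustment, used for all adjusted p-values of levels here. With GDNF, miR-182-5p stood at 1433, 1551, 907, 824 and 1190 CPM at DIV5, against 3465, 2936, 3694, 3376 and 4307 CPM at DIV1. The groups again did not overlap, but the gap was smaller. The mean was 1181 ± 317 CPM at DIV5 and 3556 ± 502 CPM at DIV1 (SD, n = 5 each), a log2 fold change of -1.59 (SE 0.277, edgeR adjusted p = 8.51e-05).

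miR-183-5p, the second arm by abundance, stood at 166, 133, 39.9, 44.2 and 67.0 CPM in DIV5 controls 1 to 5, against 341, 339, 394, 319 and 396 CPM in DIV1 controls. The DIV5 controls fell into a higher pair, libraries 1 and 2, and a lower trio, while the DIV1 controls lay close together. The change was -2.01 on the log2 scale (SE 0.316, edgeR adjusted p = 2.21e-05). With GDNF, miR-183-5p stood at 212.5, 202.5, 120.4, 177 and 206 CPM at DIV5, against 382, 455, 438, 513 and 714 CPM at DIV1. No DIV5 library reached the lowest DIV1 library, and the change was -1.44 (SE 0.307, edgeR adjusted p = 0.000607).

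miR-96-5p had few reads, so its values rest on counts between 1 and 21 per library. It stood at 2.83, 2.96, 0.593, 0.303 and 2.18 CPM in DIV5 controls, from 6, 3, 3, 1 and 10 reads, against 11.4, 13.7, 11.2, 15.7 and 9.29 CPM in DIV1 controls. The groups did not overlap, and DIV5 control libraries 3 and 4 were the lowest. The change was -2.98 (SE 0.414, edgeR adjusted p = 4.00e-06) without GDNF. With GDNF, miR-96-5p stood at 5.01, 4.67, 3.96, 3.74 and 3.90 CPM at DIV5, against 20.8, 15.3, 13.1, 18.9 and 36.4 CPM at DIV1. The DIV5 libraries with GDNF lay close together, with a mean of 4.26 ± 0.552 CPM from 10, 8, 16, 15 and 15 reads. The counting interval of each was wider than their range, so the closeness is not read as a trait of the group. DIV1 GDNF library 5 stood highest of all 20. The change was -2.20 (SE 0.352, edgeR adjusted p = 2.65e-05).

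miR-183-3p, the lesser arm of miR-183, changed in the same direction. Its DIV5 libraries lay between 0 and 3.95 CPM, against 11.1, 18.9, 6.22, 8.95 and 5.20 CPM at DIV1 with GDNF and 6.06, 6.41, 12.6, 9.15 and 10.8 CPM in DIV1 controls, so the days did not overlap. It averaged 2.13 ± 1.74 CPM in DIV5 controls and 9.01 ± 2.81 CPM in DIV1 controls, and 1.89 ± 0.892 CPM at DIV5 and 10.1 ± 5.43 CPM at DIV1 with GDNF (SD, n = 5 each). No read of it was found in DIV5 control library 4, where 3 reads would be 1.01 CPM before TMM scaling. The change was -2.24 without GDNF (SE 0.581, edgeR adjusted p = 0.00248) and -2.51 with GDNF (SE 0.557, edgeR adjusted p = 0.000806).

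A change with the day was common in these cultures. Without GDNF, all 4 tested arms of the cluster were called and lower at DIV5, beside 60.7% of the 542 tested miRNAs called in either direction, 29.3% lower and 31.4% higher. With GDNF all 4 were again called lower, beside 52.4% called in either direction, 27.3% lower and 25.1% higher. The median change over all tested miRNAs was 0.10 without GDNF and 0.00167 with GDNF on the log2 scale, against a range of -2.98 to -2.01 and of -2.51 to -1.44 for the 4 arms. Ordered by p over the 542 miRNAs, miR-182-5p was 22nd without GDNF and 79th with it. The share of all tested miRNAs whose groups did not overlap, between the days or between GDNF and control, was not counted. The lack of overlap is therefore not given as particular to the cluster.

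Without DIV5 control libraries 1 and 5, the day change without GDNF was -2.58 for miR-182-5p and -3.85 for miR-96-5p, and for the arms of miR-183 it was -2.36 (5p) and -3.30 (3p), all still called by edgeR. Within the DIV5 split, the change of miR-182-5p without GDNF was -1.97 with replicates 1 and 2 only and -3.40 with replicates 3 to 5 only. For miR-183-5p it was -1.18 and -2.84. For miR-183-3p it was -1.18 with replicates 1 and 2, where the call was lost (edgeR adjusted p = 0.0796), and -2.79 with replicates 3 to 5. With GDNF the change of miR-182-5p was -1.25 with replicates 1 and 2 and -1.82 with replicates 3 to 5.

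At DIV5 the 3 tested 5p arms were higher with GDNF than without it, and miR-182-5p passed the test. It stood at 1433, 1551, 907, 824 and 1190 CPM in DIV5 GDNF libraries 1 to 5, against 538, 832, 273, 291 and 222.5 CPM in DIV5 controls 1 to 5. The groups met at one point only, where GDNF library 4 lay just below control library 2. The mean was 2.74 times as high with GDNF, and the fitted log2 fold change was 1.46 (SE 0.277, 95% interval 0.88 to 2.04, edgeR adjusted p = 0.0193). It was the 1 miRNA of 542 called at DIV5 by edgeR, and 0.185% of those tested, while DESeq2 called 26. Libraries of the same replicate number varied together at DIV5, and in each of the 5 numbered pairs the GDNF library was higher, by 2.66, 1.87, 3.32, 2.84 and 5.35 times.

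The call for miR-182-5p held by a small margin. It was lost without DIV5 GDNF library 1 (log2 fold change 1.38, adjusted p = 0.0829) or library 2 (1.34, adjusted p = 0.0918), without DIV5 control libraries 1 and 5 together (1.36, adjusted p = 0.0530), and in a fit to the 10 DIV5 libraries alone (1.46, adjusted p = 0.442), all by edgeR. Over the other settings the change lay between 1.06 and 1.91. With the replicate number as a block the edgeR adjusted p was 0.000144 at a change of 1.59.

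miR-183-5p stood at 212.5, 202.5, 120.4, 177 and 206 CPM in DIV5 GDNF libraries, against 166, 133, 39.9, 44.2 and 67.0 CPM in DIV5 controls. GDNF library 3, the lowest of its group, lay below control libraries 1 and 2, so the groups overlapped. The log2 fold change of 1.05 (SE 0.307, 95% interval 0.41 to 1.69) missed the threshold with an edgeR adjusted p of 0.0845. With the replicate number as a block it passed (change 1.24, edgeR adjusted p = 0.0197), as it did without control library 1 (1.43, adjusted p = 0.0158) or control library 2 (1.23, adjusted p = 0.0233). With that block 3 miRNAs were called at DIV5. By DESeq2 miR-183-5p passed as well (1.03, adjusted p = 0.0257), among 26 called. Within the numbered pairs, GDNF libraries were higher by 1.28, 1.52, 3.02, 4.002 and 3.07 times.

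miR-96-5p stood at 5.01, 4.67, 3.96, 3.74 and 3.90 CPM in DIV5 GDNF libraries, against 2.83, 2.96, 0.593, 0.303 and 2.18 CPM in DIV5 controls. The 2 groups did not overlap, but the control values come from 1 to 10 reads each and their counting intervals are wide. For control library 4 the single read gives an exact 95% binomial interval of 0.00853 to 1.88 CPM before TMM scaling, which covers counting error only. The log2 fold change of 1.44 (SE 0.410, 95% interval 0.59 to 2.29) had an edgeR adjusted p of 0.0749. It passed without control library 2 (1.58, edgeR adjusted p = 0.0276), and leaving out control libraries 1 and 5 moved it to 2.30 (edgeR adjusted p = 0.0530). By DESeq2 miR-96-5p passed (1.47, adjusted p = 0.0227).

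miR-183-3p showed no such difference in its values. It stood at 2.51, 2.33, 1.49, 0.499 and 2.60 CPM in DIV5 GDNF libraries, against 3.30, 3.95, 0.593, 0 and 2.84 CPM in DIV5 controls. The groups overlapped over most of their range, and the GDNF library was higher in 2 of 5 numbered pairs. The edgeR adjusted p was 0.997, and the sign of the change turned under several settings, so no direction is given for this arm.

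The GDNF difference at DIV5 was larger on one side of the split than on the other. With replicates 1 and 2 only, miR-182-5p averaged 1492 CPM with GDNF and 685 CPM in controls, 2.18 times (log2 change 1.06, edgeR adjusted p = 0.0128). With replicates 3 to 5 only, it averaged 974 CPM with GDNF and 262 CPM in controls, 3.71 times (1.91, edgeR adjusted p = 8.41e-07). The groups did not overlap on either side. For miR-183-5p the GDNF mean was 1.39 times the control mean in replicates 1 and 2 and 3.33 times in replicates 3 to 5, and the call was made on the second side alone (edgeR adjusted p = 0.469 and 9.07e-05). For miR-96-5p the ratios were 1.67 and 3.77, with no call on either side. Whether the GDNF effect differs between the sides was not tested.

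**Figure D2:**
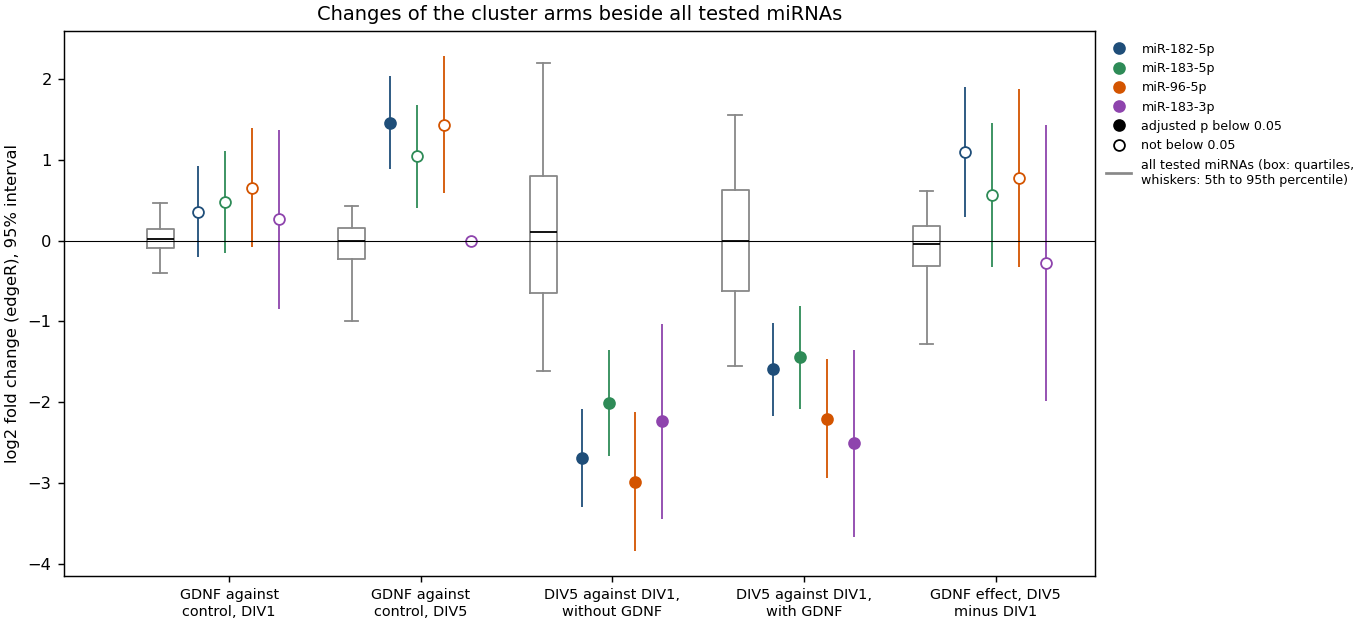
Log2 fold change (vertical axis) of each tested cluster arm in 5 comparisons, with 95% intervals derived from the edgeR test statistic. Filled points have an adjusted p below 0.05. Grey boxes give the quartiles of all 542 tested miRNAs and their whiskers the 5th to 95th percentile; the interval of miR-183-3p for GDNF at DIV5 is left out because its fitted change of nearly 0 gives no stable standard error. The arms lie below the quartile box of all miRNAs in both day comparisons, and miR-182-5p alone is filled for GDNF at DIV5, at 1.46.

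At DIV1 the same 3 5p arms had higher means with GDNF, by smaller amounts, and none passed the test. miR-182-5p stood at 3465, 2936, 3694, 3376 and 4307 CPM in DIV1 GDNF libraries, against 2586, 2406, 2865, 3114 and 2873 CPM in DIV1 controls. One GDNF library, number 2, lay within the range of the controls and the other 4 lay above it. The log2 fold change was 0.36 (SE 0.271, 95% interval -0.20 to 0.93). For miR-183-5p it was 0.48 (SE 0.303, -0.15 to 1.11). The other two tested arms stood at 0.66 (miR-96-5p, SE 0.354, -0.08 to 1.39) and 0.27 (miR-183-3p, SE 0.533, -0.84 to 1.38). All 4 had edgeR adjusted p-values of 1.00, and 0 of 542 miRNAs (0%) were called by edgeR. DESeq2 also called 0, and 7 had an unadjusted edgeR p below 0.05. In the pairs of equal number the GDNF library was higher in 5 of 5 for each 5p arm, with ratios of 1.08 to 1.50 for miR-182-5p, but the numbers were not shown to pair the libraries at DIV1.

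The test of whether the GDNF effect differed between the days did not pass for any arm. The difference of the effects, DIV5 minus DIV1, was 1.10 for miR-182-5p (SE 0.384, 95% interval 0.30 to 1.90, edgeR adjusted p = 0.436). It was 0.57 for miR-183-5p (adjusted p = 0.794) and 0.78 for miR-96-5p (adjusted p = 0.744). By edgeR 0 of 542 miRNAs (0%) were called in this comparison and by DESeq2 0, while 50 had an unadjusted edgeR p below 0.05. The call for miR-182-5p depended on the DIV5 libraries and on the replicate block, a term for the replicate number within each day: it passed without DIV5 control library 2 (1.50, edgeR adjusted p = 0.0385) and with DIV5 replicates 3 to 5 only (1.57, adjusted p = 0.000390), against 0.72 (adjusted p = 0.144) with replicates 1 and 2 only and 1.03 (adjusted p = 0.997) without DIV5 control libraries 1 and 5. With the block the difference was 1.24 (edgeR adjusted p = 0.0580), and with the block and without control libraries 1 and 5 it was 1.03 and passed (edgeR adjusted p = 0.00137). The same number is the difference between the 2 day changes, so a smaller fall of miR-182-5p with GDNF was not shown by this test either.

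The cluster's share of all miRNA counts gives its level scaled by total count only, without the TMM correction for composition. It was 0.173, 0.170, 0.105, 0.105 and 0.160% in DIV5 GDNF libraries, against 0.0821, 0.0930, 0.0369, 0.0373 and 0.0337% in DIV5 controls. At DIV1 it was 0.389, 0.324, 0.379, 0.359 and 0.464% with GDNF, against 0.281, 0.265, 0.296, 0.311 and 0.310% in controls. By this scaling, at each day every GDNF library was above every control library, and every DIV5 library was below every DIV1 library. The nearest values at DIV1, 0.324% with GDNF and 0.311% in controls, were close. With TMM-scaled totals the DIV1 groups overlapped, with GDNF library 2 below control library 4. These shares are mostly those of miR-182-5p and are given without a p-value, because the arms were chosen with earlier results of these data known.

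The ratio of miR-182-5p to miR-183-5p describes the cluster independently of depth and scaling. There were 6.74, 7.66, 7.53, 4.66 and 5.78 reads of miR-182-5p per read of miR-183-5p in DIV5 GDNF libraries, against 3.24, 6.24, 6.84, 6.58 and 3.32 in DIV5 controls. DIV5 control libraries 1 and 5, the libraries that stood apart, had the lowest ratios of all 20. At DIV1 the ratios were 9.08, 6.45, 8.44, 6.58 and 6.03 with GDNF, against 7.59, 7.10, 7.27, 9.76 and 7.25 in controls. In reads of the 5p pair, miR-183-5p made up 23.6% of DIV5 control library 1 (exact 95% binomial interval 21.5 to 25.8%) and 23.1% of library 5 (20.9 to 25.5%), against 12.7 to 13.8% in DIV5 control libraries 2 to 4.

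On the log2 scale the ratio averaged 2.31 ± 0.548 in DIV5 controls and 2.95 ± 0.19 in DIV1 controls (SD, n = 5 each), a difference of -0.64. The 2 groups did not overlap, and the two-sided exact permutation p was 0.00794, the smallest that 5 against 5 libraries allow. The Benjamini-Hochberg adjusted p was 0.0317 over a family of 20 tests of ratios, arm use and cluster share. The cluster share tests, whose p-values are not given, reached the same smallest p, and the call of the ratio depends on their inclusion. That call was lost in 9 of the 10 runs with 1 library left out. Without DIV5 control libraries 1 and 5 the difference was smaller, at -0.24 (exact permutation p = 0.0357, adjusted p = 0.119). That p is the smallest that 5 against 3 libraries allow, so the lost call cannot decide whether the ratio still differed. With GDNF the ratio averaged 2.67 ± 0.299 at DIV5 and 2.85 ± 0.261 at DIV1, which overlapped (adjusted p = 0.522, exact permutation test, n = 5 each). Between GDNF and control libraries the ratio did not pass at either day. The difference was 0.36 at DIV5 (exact permutation, adjusted p = 0.410), or -0.04 without control libraries 1 and 5, and -0.10 at DIV1 (adjusted p = 0.625).

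**Figure D3:**
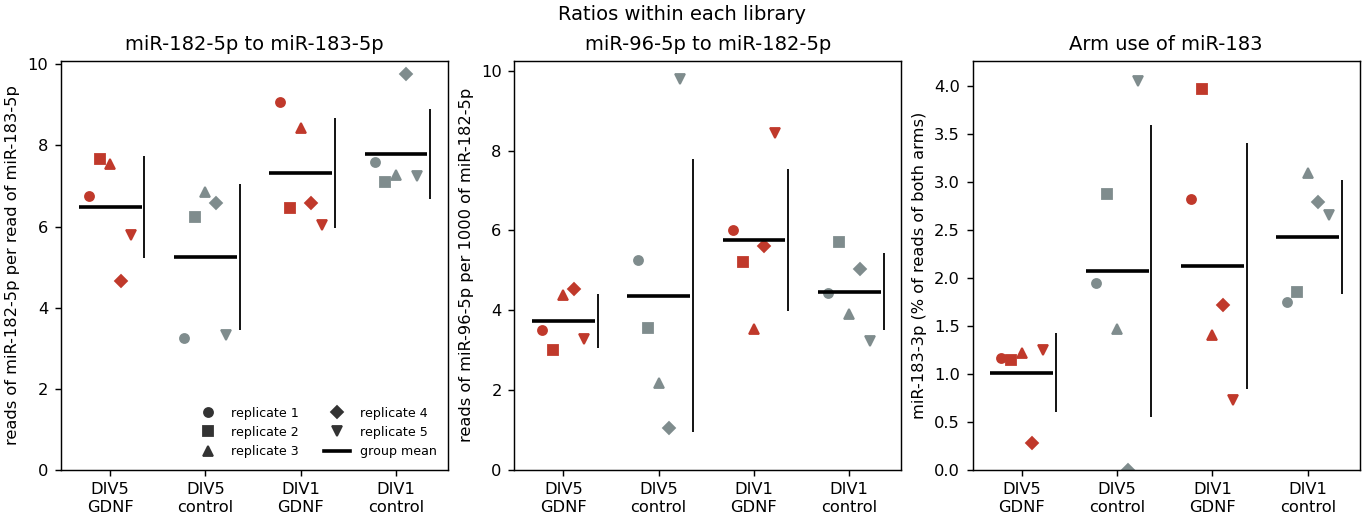
Ratios within each library, independent of scaling: reads of miR-182-5p per read of miR-183-5p (left), reads of miR-96-5p per 1000 reads of miR-182-5p (middle) and miR-183-3p as a percent of the reads of both miR-183 arms (right), each on a linear vertical axis from 0. Points are libraries, horizontal lines the means of 5 and vertical lines 1 SD on each side. DIV5 control libraries 1 and 5 have the lowest values on the left, 3.24 and 3.32, and the DIV5 controls are widely spread in the middle and on the right.

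Relative to its neighbours, miR-96-5p was variable at low counts. There were 3.50, 3.01, 4.37, 4.54 and 3.28 reads of it per 1000 reads of miR-182-5p in DIV5 GDNF libraries, against 5.25, 3.56, 2.17, 1.04 and 9.80 in DIV5 controls. The controls ranged on both sides of the GDNF libraries, and control library 5 had the highest ratio of all 20. At DIV1 the ratios were 6.01, 5.20, 3.54, 5.60 and 8.44 with GDNF, against 4.43, 5.71, 3.90, 5.04 and 3.23 in controls. With GDNF, miR-96-5p lay lower at DIV5 than at DIV1 relative to miR-183-5p by 0.75 on the log2 scale, with means of -5.35 ± 0.297 at DIV5 and -4.60 ± 0.386 at DIV1, and missed the threshold (exact permutation p = 0.0159, adjusted p = 0.0529, n = 5 each). None of the 8 tests of miR-96-5p ratios passed after adjustment. Leaving out DIV1 GDNF library 3 brought both ratios of miR-96-5p with GDNF between the days below the threshold (exact permutation, adjusted p = 0.0454 for each). Both calls depend on the cluster share tests in the family.

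The 5p arm was the main product of all 3 hairpins. For miR-183, the 3p arm made up 1.17, 1.14, 1.22, 0.281 and 1.25% of the reads of both arms in DIV5 GDNF libraries, against 1.94, 2.88, 1.46, 0 and 4.06% in DIV5 controls. It made up 2.83, 3.98, 1.40, 1.71 and 0.722% at DIV1 with GDNF, against 1.75, 1.86, 3.09, 2.79 and 2.66% in DIV1 controls. The means were 1.01 ± 0.410% at DIV5 with GDNF, 2.07 ± 1.52% in DIV5 controls, 2.13 ± 1.28% at DIV1 with GDNF and 2.43 ± 0.595% in DIV1 controls (SD, n = 5 each). None of the 4 comparisons passed an exact permutation test, with adjusted p-values between 0.212 and 0.697. The lowest and highest 3p shares had exact 95% binomial intervals of 0 to 2.50% (DIV5 control library 4) and 2.18 to 6.85% (DIV5 control library 5), which overlap. Without DIV5 control library 4 the GDNF comparison at DIV5 passed (exact permutation, adjusted p = 0.0454, difference of -1.58 percentage points). That call also depends on the cluster share tests in the family.

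For miR-182 the 3p arm was rarer, with 44 reads against 51922 of the 5p arm, or 0.0847%. Reads of miR-182-3p were seen in 16 of 20 libraries, and no library had more than 5. Summed over 5 libraries there were 13 at DIV5 with GDNF, 11 in DIV5 controls, 6 at DIV1 with GDNF and 14 in DIV1 controls, too few to test. For miR-96 there were 0 reads of the 3p arm beside 231 of the 5p arm, which allows a 3p share of up to 1.30%. The 3p share of miR-183, 1.79% over all libraries, would not have been detectable for miR-96 with the 23 reads of the DIV5 controls, where 0 reads allow up to 13.0%.

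The cluster arms moved together across the libraries. Over the 541 other tested miRNAs, the 2 with the highest Pearson r of log2 CPM with miR-182-5p were its cluster partners miR-183-5p (r = 0.960) and miR-96-5p (r = 0.939), over 20 libraries. miR-183-3p, at low counts, was the 51st (r = 0.789). These values describe 20 libraries that share 4 groups and differ strongly between the days, and are given without a p-value. With the group means subtracted, miR-183-5p was the 9th (r = 0.754), miR-96-5p the 40th (r = 0.558) and miR-183-3p the 64th (r = 0.464). This subtraction leaves the DIV5 split by replicate number in the values. Over the 18 libraries without DIV5 control 1 and 5, miR-183-5p had an r of 0.980 with miR-182-5p (0.856 with the group means subtracted), miR-96-5p had 0.973 (0.773) and miR-183-3p had 0.886 (0.653).

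**Figure D4:**
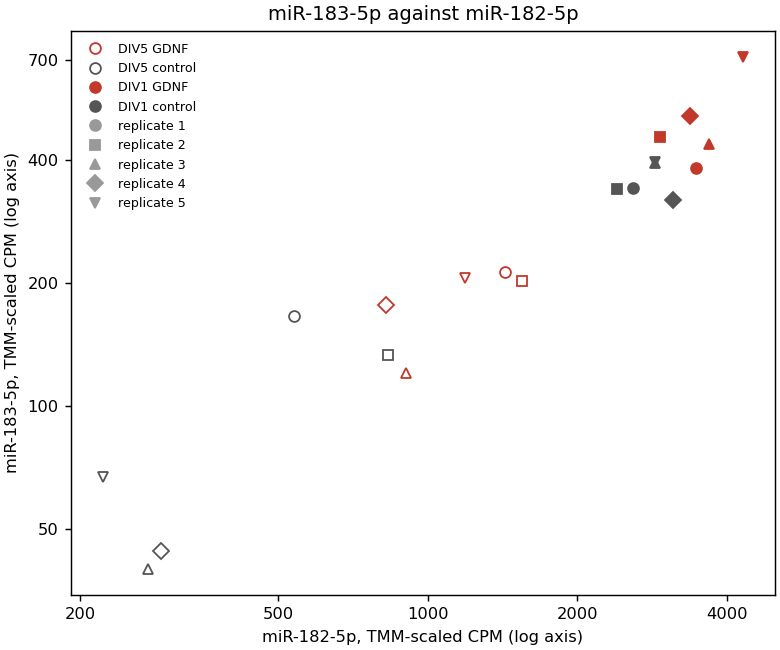
miR-183-5p against miR-182-5p in the 20 libraries, both in TMM-scaled CPM on log axes. Colour gives the treatment, filled points are DIV1, open points DIV5, and the shape gives the replicate number. The libraries run along one diagonal, from 222.5 CPM of miR-182-5p in DIV5 control library 5 to 4307 CPM in DIV1 GDNF library 5, with DIV5 control libraries 1 and 5 above the others at their level.

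Outside the cluster, 437 tested miRNAs with a mean of at least 10 CPM were compared in the same way. The 5 most like miR-182-5p over 20 libraries were miR-25-3p (r = 0.921), miR-151-3p (r = 0.919), miR-301b-3p (r = 0.910), miR-421-3p (r = 0.894) and miR-3078-5p (r = 0.892). All 5 had lower means at DIV5 than at DIV1 in both treatments. For miR-25-3p the means were 4482 CPM at DIV5 with GDNF, 3667 CPM in DIV5 controls, 10440 CPM at DIV1 with GDNF and 9619 CPM in DIV1 controls. With group means subtracted the list was almost entirely different: miR-129-2-3p (r = 0.877), miR-10a-5p (r = 0.828), miR-10b-5p (r = 0.826), miR-320-3p (r = 0.821) and miR-421-3p (r = 0.794). The DIV5 split by replicate number, across which miR-182-5p differed, remains in these values. Its part in them was not tested. miR-129-2-3p went the other way with the day, at 1176 CPM at DIV5 with GDNF and 1407 CPM in DIV5 controls, against 83.0 CPM at DIV1 with GDNF and 77.9 CPM in DIV1 controls.

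miRNAs known from neurons, from midbrain dopaminergic neurons, from sensory and neuroendocrine cells and from other cell types were listed to set the cluster beside the makeup of the cultures. Some stand in more than one list: miR-218-5p in the neuronal and dopaminergic lists, miR-7a-5p in the dopaminergic and sensory lists, and the miR-200 family in the sensory and epithelial lists. In the neuronal list, miR-124-3p and miR-9-5p, the classical miRNAs of neurons and neural progenitors, were abundant. miR-124-3p averaged 6040 CPM at DIV5 with GDNF, 6060 CPM in DIV5 controls, 2442 CPM at DIV1 with GDNF and 2357 CPM in DIV1 controls. Between the days without GDNF, 6 of the 7 tested neuronal miRNAs were called higher at DIV5 by edgeR and 0 lower, with a median log2 change of 0.94. Of all 542 tested miRNAs, 31.4% were called higher and 29.3% lower in that comparison. With GDNF, 4 of 7 were called higher and 0 lower, with a median of 0.83, beside 25.1% and 27.3% of all. miR-9-5p was not called, at -0.11 without GDNF (edgeR adjusted p = 0.537). Without DIV5 control libraries 1 and 5, 5 of 7 were called higher in each comparison, beside 27.4% (without GDNF) and 31.5% (with GDNF) of the 530 miRNAs then tested. miR-138-5p, also on that list, was listed at 0 in all 20 libraries. Why this and other listed miRNAs had a deposited count of 0 was not tested, so absence from the cultures is not read from it.

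In the dopaminergic list, 6 of 8 tested miRNAs were called higher at DIV5 without GDNF (median 0.88), beside the 31.4% of all, and 3 of 8 with GDNF (median 0.70), beside 25.1%, while 0 were called lower. Without DIV5 control libraries 1 and 5, 6 of 8 were called higher both without GDNF (median 0.83) and with it (median 0.74). Of the 530 miRNAs then tested, 27.4% were called higher without GDNF and 31.5% with it. miR-133b-3p, a miRNA described in midbrain dopaminergic neurons, was listed at 0 in all libraries. miR-7a-5p, a miRNA of neurons and endocrine cells that targets alpha-synuclein, had 128, 113, 247, 216 and 297 CPM at DIV5 with GDNF, against 2287, 110.5, 304, 295 and 4534 CPM in DIV5 controls. Control libraries 1 and 5 stood far above the other 8, and the groups overlapped. It rose with the day in controls by 4.49 on the log2 scale (edgeR adjusted p = 0.000126), or by 1.86 without libraries 1 and 5 (adjusted p = 0.000158). Its GDNF difference at DIV5 was -2.91 (edgeR adjusted p = 0.0550), or -0.26 without them (adjusted p = 0.999).

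The list of sensory and neuroendocrine miRNAs held the closest companions of the cluster in the retina, inner ear and endocrine cells. Of its 9 members 4 were tested, of which 2 were called higher and 2 lower at DIV5 without GDNF (median 0.21). Of all 542 tested miRNAs, 31.4% were called higher and 29.3% lower. With GDNF 1 was called higher and 1 lower (median 0.48), beside 25.1% and 27.3% of all. Without DIV5 control libraries 1 and 5, 2 were called higher and 1 lower in each comparison. Of the 530 miRNAs then tested, 27.4% were called higher and 26.4% lower without GDNF, and 31.5% and 28.7% with it. miR-375-3p, found in neuroendocrine cells and pancreatic islets, averaged 405 ± 133 CPM at DIV5 with GDNF, 242.5 ± 57 CPM in DIV5 controls, 489 ± 58.9 CPM at DIV1 with GDNF and 457 ± 44.7 CPM in DIV1 controls (SD, n = 5 each). It fell by 0.91 on the log2 scale without GDNF (edgeR adjusted p = 0.000406), and its GDNF difference at DIV5 of 0.74 had an edgeR adjusted p of 0.0550, with overlapping groups. miR-204-5p, abundant in retinal pigment epithelium, was called at 1.34 without GDNF and its relative miR-211-5p at -1.15 (edgeR adjusted p = 5.95e-07 and 0.0131). The 5 arms of the miR-200 family, which share sensory epithelia with the cluster, were near the floor, each with a mean of at most 2.86 CPM.

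Markers of other cell types moved with the day as well. Among 5 miRNAs of vessels and mesenchyme 3 were called lower at DIV5 by edgeR and 0 higher, both without GDNF (median -1.46) and with it (median -1.22), beside 29.3% and 27.3% of all 542 called lower. The counts were also 3 and 0 without DIV5 control libraries 1 and 5. Of the 530 miRNAs then tested, 26.4% were called lower without GDNF and 28.7% with it. Their summed level ranged over 303 to 2945 CPM at DIV5 with GDNF, 613 to 1508 CPM in DIV5 controls, 2882 to 4178 CPM at DIV1 with GDNF and 2956 to 4880 CPM in DIV1 controls. miR-451a, the miRNA of red blood cells and the 1 tested of 2 on the blood list, was called lower, at -2.10 without GDNF and -1.90 with it, and the summed level of both was 2.00 to 22.8 CPM at DIV5 with GDNF, 4.58 to 18.8 CPM in DIV5 controls, 13.0 to 55.4 CPM at DIV1 with GDNF and 18.6 to 60.6 CPM in DIV1 controls. Of 7 epithelial miRNAs, miR-203-3p was tested and called lower at DIV5, at -0.39 without GDNF and -0.57 with it, and without DIV5 control libraries 1 and 5 it was not called in the comparison without GDNF (-0.43). The summed epithelial level was 49.0 to 67.7 CPM at DIV5 with GDNF, 49.0 to 56.99 CPM in DIV5 controls, 73.6 to 94.4 CPM at DIV1 with GDNF and 50.5 to 88.2 CPM in DIV1 controls.

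Of 3 miRNAs of oligodendrocytes, miR-219a-2-3p was tested and called lower, at -1.02 without GDNF and -1.45 with it, while miR-219a-5p was listed at 0 in all libraries. The third, miR-338-3p, was near the floor and went the other way. Its means were 0.437 CPM at DIV5 with GDNF, 0.421 CPM in DIV5 controls and 0 CPM in both DIV1 groups. The sum of the list is thus almost wholly miR-219a-2-3p. The summed oligodendrocyte level was 167 to 295 CPM at DIV5 with GDNF, 205 to 411 CPM in DIV5 controls, 439 to 601 CPM at DIV1 with GDNF and 484 to 656 CPM in DIV1 controls. Of 3 miRNAs of astrocytes and injury, 2 were called higher at DIV5 without GDNF (median 0.99), beside the 31.4% of all, and 1 with GDNF (median -0.08), beside 25.1%. Without DIV5 control libraries 1 and 5, 1 was called higher in the comparison without GDNF (median -0.06), beside 27.4% of all then tested. miR-21a-5p, which held most of the list's level with a mean of 2886 CPM over 20 libraries, was not called, at -0.18 without GDNF and -0.08 with it (edgeR adjusted p = 0.104 and 0.480). The sum of the list ranged over 2787 to 3159 CPM at DIV5 with GDNF, 2562 to 3137 CPM in DIV5 controls, 2860 to 3480 CPM at DIV1 with GDNF and 2661 to 3338 CPM in DIV1 controls. No listed miRNA was called for GDNF at either day. The part of these cell types in the fall of the cluster was not tested.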

How the data were processed

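The deposited files held raw counts of reads per mature miRNA, 1 file per library. Per the submitters' processing notes, the authors used cutadapt 1.8.1, STAR 2.4.1d, HTSeq (version not given in the sources used here) and the mouse build mm10. The counts were used as deposited. Tallies of reads without a feature (9.51 to 22.6% of each library) stayed out of library sizes and tests, and 12 entries that join several miRNA names were kept as 1 feature each. The cluster arms, the companion lists and the settings were chosen with earlier results of these data known.

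Counts were tested with edgeR 4.0.16 in R 4.3.3: filterByExpr by group, TMM factors, a robust quasi-likelihood fit of all 20 libraries with 1 coefficient per group, and Benjamini-Hochberg adjustment over all 542 tested of the 1581 miRNAs with a read. In each library at least 99.9% of counts fell on tested miRNAs. Calls used an adjusted p below 0.05. DESeq2 1.42.0 was an alternative, as were other scalings, filters and left-out libraries.

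Ratios, as log2((a + 0.5)/(b + 0.5)) of counts, and arm shares were compared with two-sided exact permutation tests (scipy 1.17.1, Python 3.11.15). Their p-values were adjusted over 20 tests, which include the cluster share. The low p-values of the share lower the adjusted p-values of ratios and arm shares, whose calls depend on its inclusion. The smallest p possible is 0.00794 for 5 against 5 libraries, 0.0159 for 5 against 4 and 0.0357 for 5 against 3. Intervals and floors of 3 counts cover counting error only, and the depth of 420118 to 4324505 counts per library sets them.

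Named miRNAs were all arms of the cluster, miRNAs sharing bases 2 to 7 with its 5p arms, listed miRNAs with a mean of at least 10 CPM, and the 5 non-members most like miR-182-5p by either measure; the listed miRNAs at or near 0 were named beside them. Replicate numbers come from the labels. Deviations from the group means of GDNF and control libraries of equal number correlated at 0.208 to 0.514 at DIV5, where each was highest with its own number, so the numbers were taken to pair the DIV5 libraries. At DIV1 the range was 0.00625 to 0.474 and between the days it was -0.107 to 0.142, so they were not taken to pair those. No libraries of a group agreed within sampling noise (lowest chi-square per degree of freedom 10.3 over 40 pairs).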

Additional observations from a re-analysis of the deposited data

Results flagged for a closer look

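In 36 groups of 5 libraries searched for a value far from the others, 2 were found, and chance gives about 1 in 20. The log2 ratio of miR-182-5p to miR-183-5p was 3.28 in DIV1 control library 4, with the next value of its group at 2.92. The share of miR-183-3p in the reads of both miR-183 arms was 0.281% in DIV5 GDNF library 4, from 2 reads of the 3p arm, with the next value at 1.14%.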

How the results depend on the processing

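The 45 results had 1022 alternative values, of which 892 kept their direction and side of the threshold, 71 lost the threshold, 30 passed it newly and 29 changed sign. The fall of the 3 tested 5p arms with the day was called under every alternative run, and so was that of miR-183-3p except without GDNF with DIV5 replicates 1 and 2 only (-1.18). All GDNF values below are log2 fold changes by edgeR unless stated.

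For GDNF at DIV5, the number of miRNAs called was 13 among those with a mean of at least 10 CPM, 26 by DESeq2, 3 with the replicate block, 4 with the block and without DIV5 control libraries 1 and 5, 2 on each side of the DIV5 split, and 0 without those libraries or in the DIV5 libraries alone; it ranged from 0 to 43 with 1 library left out. miR-182-5p lost its call in the DIV5 libraries alone (1.46) and without control libraries 1 and 5 (1.36), and ranged from 1.30 to 1.84 with 1 library left out. miR-183-5p passed with the block (1.24), with the block and without libraries 1 and 5 (1.39), with replicates 3 to 5 (1.76) and by DESeq2 (1.03), with a left-out range of 0.85 to 1.43. miR-96-5p passed by DESeq2 (1.47), with a range of 1.14 to 1.70. miR-183-3p changed sign without libraries 1 and 5 (1.07), with the block (0.11), with both (0.55) and with replicates 3 to 5 (0.34), and ranged from -0.36 to 0.36 with 1 library left out.

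At DIV1, 2 miRNAs were called with the block and without DIV5 control libraries 1 and 5, and miR-183-3p ranged from -0.12 to 0.43 with 1 library left out. The replicate block at DIV1, where the numbers were not shown to pair the libraries, called 0; 3 of 5 pairs there correlated best with their own number. For the GDNF effect at DIV5 minus that at DIV1, miR-182-5p passed with the block and without libraries 1 and 5 (1.03) and with replicates 3 to 5 (1.57), with a left-out range of 0.96 to 1.50; 5 and 1 miRNAs were called there, and 0 to 1 with 1 library left out. Signs changed for miR-183-3p without libraries 1 and 5 (0.83), with the block as well (0.31) and with replicates 3 to 5 (0.10), with a left-out range of -0.62 to 0.11, and for miR-183-5p with replicates 1 and 2 (-0.0917).

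The log2 ratio of miR-182-5p to miR-183-5p, DIV5 against DIV1 without GDNF, lost its call without libraries 1 and 5 (-0.24) and under the replicate block (-0.64). The call was also lost with replicates 1 and 2 (-0.78) and 3 to 5 (-0.54). With 1 library left out the ratio ranged from -0.76 to -0.49, and the call was lost in 9 of 10 runs (exact permutation, adjusted p = 0.0529). The exact p was the smallest possible under the block (0.0625 for 5 pairs). It was also the smallest possible without libraries 1 and 5 and with replicates 3 to 5 (0.0357 for 5 against 3). The same holds for replicates 1 and 2 (0.0952) and for the 9 runs with 1 library left out (0.0159 for 5 against 4). These lost calls therefore cannot decide whether the ratio differed. The GDNF difference of this ratio at DIV5 changed sign without libraries 1 and 5 (-0.0379). The ratio of miR-96-5p to miR-182-5p changed sign for GDNF at DIV5 without libraries 1 and 5 (0.60) and with replicates 3 to 5 (0.27), and ranged from -0.37 to 0.31 with 1 library left out. Between the days it was 0.0803 with replicates 1 and 2, and ranged from -0.56 to 0.12, without GDNF, and from -0.73 to -0.42 with GDNF. Its ratio to miR-183-5p ranged from -0.87 to -0.64 between the days with GDNF. The miR-183-3p share differed by -1.58 to -0.561 percentage points for GDNF at DIV5, -0.763 to 0.0507 at DIV1, and -0.858 to 0.158 between the days without GDNF.

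The difference in cluster share kept its sign throughout, in percentage points. For GDNF at DIV5 it was 0.0866 without libraries 1 and 5, 0.0857 with the block, 0.0837 with replicates 1 and 2, 0.0871 with 3 to 5 and 0.0781 to 0.0952 with 1 library left out. For GDNF at DIV1 it was 0.0937 of TMM-scaled totals, 0.0905 with the block and 0.0703 to 0.105. Between the days without GDNF it was -0.237, -0.236, -0.205, -0.257 and -0.245 to -0.230 under the settings named for DIV5, and with GDNF it was -0.241 with the block, -0.212, -0.260 and -0.256 to -0.221. TMM-scaled totals keep 5 against 5 libraries, and with them the DIV1 groups overlapped. The other settings leave fewer libraries, or 5 pairs. Their smallest possible exact p is 0.0159 for 5 against 4, 0.0357 for 5 against 3 and 0.0625 for 5 pairs. Elsewhere the cause of a lost or new call was not tested.

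Scaling by total count only moved the median of all tested miRNAs by 0.25 (DIV5 against DIV1 without GDNF), 0.15 (with GDNF) and -0.11 (difference of GDNF effects) on the log2 scale. Among the tested arms, depth limits miR-96-5p and miR-183-3p most: 3 reads were 0.694 to 2.83 CPM in DIV5 libraries. Beyond the calls named above, the block changed only those of the cluster share, which 5 pairs cannot pass (smallest exact p 0.0625).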
